A study of Mus musculus with 12 samples.

Results

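The voltage-gated sodium and calcium channel genes and the potassium channel genes were examined in mouse thymic epithelium in which the histone acetyltransferase KAT7 was deleted or inhibited. Members were every gene whose symbol starts with Scn followed by a number and a or b, with Cacna, Cacnb or Cacng followed by a number, or with Kcn, so that the epithelial sodium channel genes (Scnn) stayed outside. This rule took 138 of the 25867 genes with a symbol, of which 14 were Scn, 26 Cacn and 98 Kcn genes. It used names and no measured value. By role they were 10 sodium channel pore subunits and 4 beta subunits, 10 calcium channel pore subunits with 4 alpha2delta, 4 beta and 8 gamma subunits, 40 voltage-gated potassium pore subunits with 16 auxiliary subunits, 8 calcium- or sodium-activated potassium channels, 15 inward rectifiers, 14 2-pore-domain potassium channels, 4 non-coding transcripts and Kcnrg, a regulator of potassium channels.

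RNA was measured in epithelial cells sorted from fetal thymus lobes of E15.5 embryos, on a C57BL/6 background in all groups. The lobes had been kept for 4 to 5 days in 1.35 mM 2'-deoxyguanosine, which removes thymocytes, and then for 3 days in medium with an agonist antibody to RANK (10 µg/mL), the receptor that drives medullary maturation and Aire. Each of 4 groups had 3 libraries, which the series design calls biological replicates. Controls and Kat7 knockouts (RosaCre-ERT2 Kat7fl/fl, in which tamoxifen activates a Cre recombinase expressed from the widely active Rosa locus) both received tamoxifen, and the genotype of the controls is given as control without further detail. Wildtype cultures received either DMSO, the solvent, or WM-3835, an inhibitor of KAT7, whose dose is not given in the sources used here. The knockout comparison (knockout against control) and the inhibitor comparison (WM-3835 against DMSO) share no library.

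Channel genes encode the proteins that let sodium, calcium and potassium ions cross membranes and that set electrical excitability in neurons, muscle and endocrine cells. The pore subunit forms the ion path, and the beta, alpha2delta, gamma and other auxiliary subunits change its gating or its delivery to the membrane. Medullary thymic epithelial cells transcribe many genes that are otherwise restricted to other tissues, in part through AIRE, so that developing T cells meet self-antigens, and channel genes of nerve and muscle are among the genes read in this way. Some channels, such as inward rectifiers and 2-pore-domain channels, also set the resting potential of ordinary epithelial cells.

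The libraries held 26656847 to 52368012 counts each. Kat7 itself stood at 76.0 to 89.0 CPM (counts relative to library size, here scaled between libraries by the TMM method) in control libraries and 0.606 to 0.869 CPM in knockout libraries, while it was at 84.6 to 100.4 CPM in the wildtype cultures. Each of the 12 markers of thymic epithelium reached 1 CPM in at least 1 library, and they summed to 13210 to 17610 CPM. Single markers did change in the test described below. With WM-3835, 3 were higher (25.0%, against 9.55% of all genes) and 5 lower (41.7%, against 9.36%), among them Foxn1, Psmb11, Epcam and Ly75. In the knockouts 1 was higher (8.33%, against 6.34%) and 2 lower (16.7%, against 8.04%). Aire stood at 596 to 669 CPM in controls, 490.2 to 577 in knockouts, 1123 to 1260 with DMSO and 510.1 to 586 with WM-3835. Xist, which is read from the inactive X chromosome of female cells, was low in the controls (2.34 to 3.17 CPM) and in knockout replicate 3 (4.94 CPM), and high in knockout replicates 1 and 2 (1709 and 1191 CPM) and in all wildtype cultures (846 to 2118 CPM), so that knockout replicate 3 was the only knockout library that matched the controls in it. The libraries of a group varied most among controls, with a biological coefficient of variation of 0.469, against 0.294 among knockouts, 0.103 with DMSO and 0.125 with WM-3835.

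Channel transcripts were widely present at low levels. Of the 138 members 118 passed the filter on low counts, 80 had at least 1 count in every library and 40 had a mean of at least 1 RPKM (CPM per kilobase of gene length). The 20 members removed by the filter reached at most 25 counts in a library, and Kcnk18 had none in any. With every library thinned to 26473241 counts, 85 to 106 members had 10 counts or more, from 87 to 106 in controls, 88 to 99 in knockouts, 98 to 99 with DMSO and 85 to 98 with WM-3835. These ranges overlapped.

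The highest level per length belonged to Kcnj15, an inward rectifier, with a mean of 101.3 RPKM over the 12 libraries. It was followed at some distance by Cacnb3 (27.5 RPKM), a cytoplasmic beta subunit of calcium channels. A group of members with means between 11.7 and 15.8 RPKM came next: the 2-pore-domain channels Kcnk6, Kcnk1 and Kcnk2, which carry background potassium current, Kcnn3, a small-conductance channel opened by calcium, Kcnip3, a calcium-binding partner of A-type potassium channels, and Kcnh6, a pore subunit of the Erg type. The libraries of these 6 genes spread widely enough that their order is not fixed, as the values of neighbouring genes overlap. Cacnb1 (7.75 RPKM), Scn4b (6.78 RPKM) and Kcnq3 (6.56 RPKM) followed. Sodium channel pores were much lower, with Scn1a highest at a mean of 1.70 RPKM, and the highest calcium channel pore was Cacna1b, which forms the N-type channel of nerve endings, at 5.67 RPKM.

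**Figure D1:**
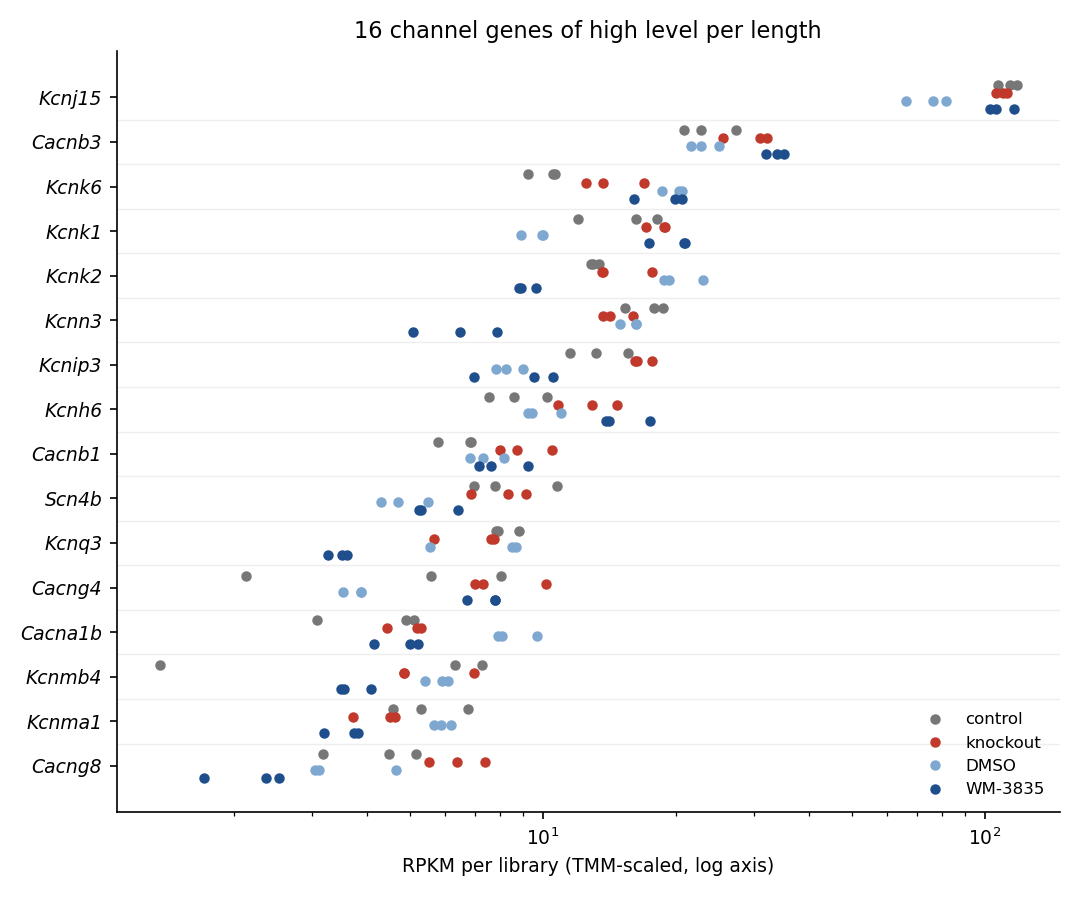
Level per length (RPKM, log axis) of 16 channel genes with a high mean, with 1 point per library coloured by group. Kcnj15 lies apart from the others, between 66.1 and 118 RPKM, and in several genes, such as Kcnk6 and Kcnk1, the DMSO libraries lie apart from the controls.

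A modest number of channel genes was called in each comparison. Against control, 9 of the 118 members passed the test (edgeR's quasi-likelihood test, Benjamini-Hochberg adjusted p under 0.05 over all 18670 genes tested) as higher and 7 as lower in the knockouts. That is 7.63% higher, against 6.34% of all genes tested, and 5.93% lower, against 8.04% of all genes. With WM-3835, 8 members were higher and 16 lower than with DMSO, or 6.78% higher against 9.55% of all genes and 13.6% lower against 9.36% of all genes. The median log2 change of the members was -0.21 in the knockouts and -0.34 with WM-3835, where the median of all genes was -0.01 in both. In all, 32 members were called in either comparison and 86 in neither. In sorted bulk RNA, fewer cells of a kind and less RNA per cell cannot be told apart.

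The knockout counts depended on the fit and on the libraries used. With each group given its own weight, 3 members were called higher and 4 lower in the knockouts, and with the 6 libraries of the comparison alone the counts were 5 and 3. Calls over all genes, in either direction, fell as well, from 2684 to 1192 and 1243 in these fits. The drop was thus not particular to channel genes. Leaving out any of the 3 knockout libraries left 4 of the lower calls. With knockout replicate 3 as the sole knockout library, which is then assumed to vary as the other groups do, 5 of 127 members tested were higher and 2 lower, and the calls of Cacnb1, Cacnb3, Kcnv1, Kcnh1, Kcnh3, Cacna1g and Cacna1d were among those lost. Group weights ended the calls of Cacnb1, Cacnb3, Cacng7, Kcnk6, Kcnh1, Kcnh3, Kcnh6, Kcnv1 and Cacna1d. Cacna1h, Cacna2d1, Scn1a and Kcna1 were called in all 17 other fits. In the inhibitor comparison, 5 members were called higher without DMSO replicate 1 or without DMSO replicate 2.

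Counts by role were small, and are to be read against the shares over all genes tested (6.34% higher and 8.04% lower in the knockouts, 9.55% and 9.36% with WM-3835). Calcium channel pore subunits gave 0 higher and 3 lower of 10 in the knockouts (Cacna1h, Cacna1g and Cacna1d), and 1 higher and 2 lower with WM-3835. Calcium channel alpha2delta subunits gave 0 higher and 1 lower of 4 in the knockouts and 0 higher and 2 lower with WM-3835. Beta subunits of calcium channels gave 2 higher of 4 in the knockouts (Cacnb3 and Cacnb1) and 1 higher with WM-3835 (Cacnb3). Of the 32 voltage-gated potassium pores tested, 3 were higher and 2 lower in the knockouts, and 2 were higher and 4 lower with WM-3835. Of 14 tested auxiliary subunits of potassium channels none was called in either comparison by edgeR. At an unadjusted p under 0.05 the 14 auxiliary subunits gave 3 genes in the knockouts and 0 with WM-3835. Of all 18670 genes tested, 5166 and 5572 passed at that threshold.

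8 members were called in both comparisons, and all 8 moved the same way. Of these, 4 fell, among them Cacna1h, Cacna2d1 and Kcnh3, and 4 rose, among them Kcna1, Kcnh6 and Cacnb3. These were 50% of the knockout calls and 33.3% of the inhibitor calls among members. Over all genes tested, 1026 genes were called in both, 38.2% of the knockout calls and 29.1% of the inhibitor calls, and 75.1% of them moved the same way.

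Cacna1h (chr17:25374285-25436334) encodes a T-type calcium channel pore, which opens at small depolarisations. Its level was 21.7, 20.4 and 16.2 CPM in the controls and 5.32, 6.63 and 4.76 CPM in the knockouts. With DMSO it was 19.2, 23.7 and 24.6 CPM, and with WM-3835 it was 5.95, 7.28 and 6.28 CPM. Every control and DMSO library thus lay above every knockout and inhibitor library. The log2 change was -1.80 (SE 0.19, adjusted p = 3.11e-06) in the knockouts and -1.79 (SE 0.19, adjusted p = 9.66e-07) with WM-3835, a fall of 3.49-fold and 3.46-fold. The difference between both effects was -0.02, with a 95% interval from -0.52 to 0.49.

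Cacna2d1 (chr5:15934264-16374511) encodes an alpha2delta subunit, an extracellular partner that carries calcium channels to the membrane and binds gabapentin drugs. It was at 15.8, 12.9 and 19.5 CPM in the controls and at 4.52, 7.07 and 4.94 CPM in the knockouts. It was at 10.1, 9.01 and 9.62 CPM with DMSO and at 2.75, 3.13 and 3.71 CPM with WM-3835. The groups did not overlap in either comparison, and the fall was 2.92-fold in the knockouts (log2 change -1.55, SE 0.23, adjusted p = 1.65e-04) and 3.00-fold with the inhibitor (log2 change -1.59, SE 0.24, adjusted p = 6.27e-05). The DMSO cultures were already below the controls.

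Kcnh3 (chr15:99224517-99242818) encodes an Elk-type potassium channel pore of the forebrain. It was at 12.5, 13.1 and 14.9 CPM in the controls and at 9.12, 7.66 and 8.94 CPM in the knockouts. With DMSO it was at 23.3, 29.2 and 24.5 CPM and with WM-3835 at 4.39, 4.54 and 4.82 CPM, a 5.60-fold fall (log2 change -2.49, SE 0.18, adjusted p = 8.11e-09). The DMSO cultures held more Kcnh3 than the controls, and the inhibitor cultures less than the knockouts. The knockout change was -0.66 on the log2 scale (SE 0.17, adjusted p = 0.0124), and this call ended without knockout replicate 2 (adjusted p = 0.0561).

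Kcna1 (chr6:126636463-126645801) encodes a delayed rectifier of axons and had the largest rise among the members called in both comparisons. It was at 3.45, 5.30 and 1.34 CPM in the controls and at 10.99, 12.7 and 10.9 CPM in the knockouts. With DMSO it was at 6.92, 6.10 and 6.76 CPM and with WM-3835 at 18.1, 20.7 and 18.3 CPM. Every knockout library was above every control, and every inhibitor library above every DMSO library. The rise was 3.40-fold in the knockouts (log2 change 1.77, SE 0.30, adjusted p = 6.09e-04) and 2.88-fold with WM-3835 (log2 change 1.52, SE 0.29, adjusted p = 8.66e-04).

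Other members that rose in both did so by less. Kcnh6 went from 21.5 to 29.1 CPM in controls to 30.8 to 42.0 CPM in knockouts (log2 change 0.54, SE 0.14, adjusted p = 0.0138), and from 26.4 to 31.4 CPM with DMSO to 39.7 to 49.7 CPM with WM-3835 (log2 change 0.61, SE 0.14, adjusted p = 0.00382). Cacnb3 reached 79.5 to 100.3 CPM in knockouts against 65.0 to 85.4 CPM in controls, ranges that overlapped (log2 change 0.32, SE 0.10, adjusted p = 0.0416), and 99.8 to 109.5 CPM with WM-3835 against 67.3 to 78.0 CPM with DMSO (log2 change 0.54, SE 0.10, adjusted p = 7.12e-04). The Cacnb3 knockout call was held in 8 of 17 other fits and ended without control replicate 1 (adjusted p = 0.088), control replicate 3 (0.116), knockout replicate 1 (0.118) or knockout replicate 3 (0.144). The Kcnh6 knockout call ended without knockout replicate 3 (adjusted p = 0.0719).

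**Figure D2:**
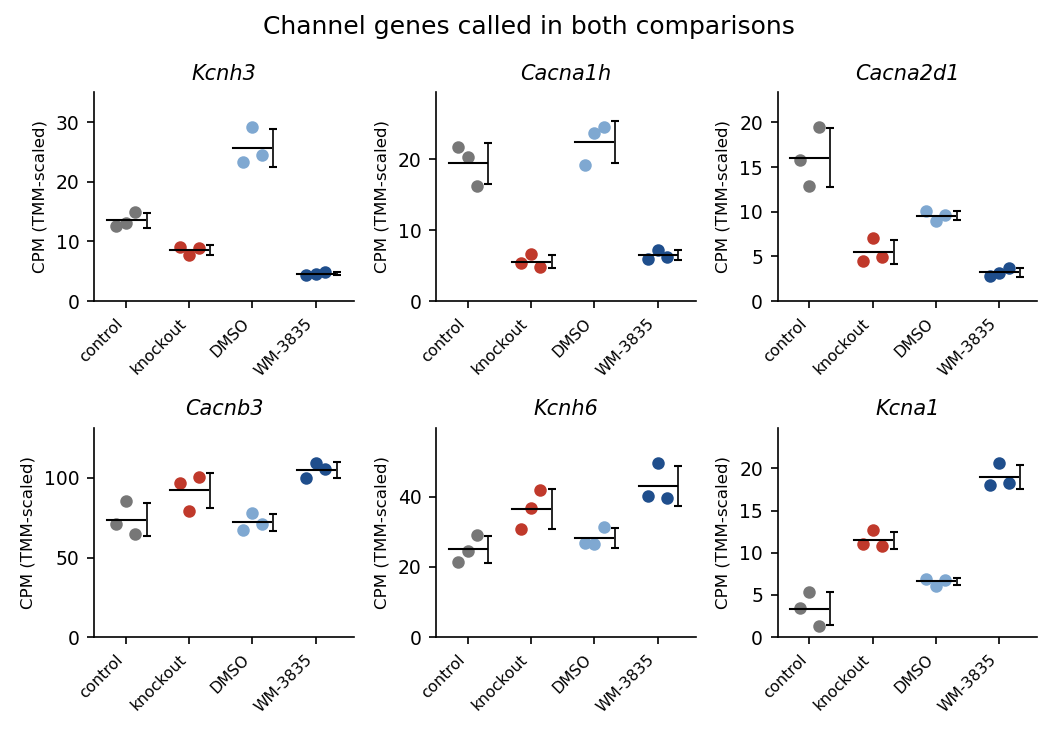
CPM of 6 channel genes called in both comparisons, with 1 point per library, the group mean as a line and 1 SD as the bar beside it. In Cacna1h the controls (16.2 to 21.7 CPM) and DMSO cultures (19.2 to 24.6 CPM) lie above the knockouts and the WM-3835 cultures, and in Kcna1 the order is turned round.

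The bases upstream of the start site are shown for 4 members, because they set 2 genes called in both comparisons (Cacna2d1, which fell, and Kcnh6, which rose) beside 1 gene called in the knockouts (Scn1a) and 1 called with the inhibitor (Kcnn3). RefSeq promoter windows of build GRCm38.p6 were found for 102 members and for 22 of the 32 called ones, and the 250 bases before each annotated start were read 5' to 3' on the gene's strand. Capitals mark the GC box, GGGCGG or CCGCCC, a site of Sp-type factors, and in Kcnh6 also the 2 arms of the element bound by REST, the repressor that silences neuronal genes outside neurons.
Cacna2d1: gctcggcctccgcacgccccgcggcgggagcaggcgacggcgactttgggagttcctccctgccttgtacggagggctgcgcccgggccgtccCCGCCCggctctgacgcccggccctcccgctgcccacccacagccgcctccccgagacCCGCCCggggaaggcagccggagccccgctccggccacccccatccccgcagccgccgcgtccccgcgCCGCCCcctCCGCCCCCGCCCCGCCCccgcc
Kcnh6: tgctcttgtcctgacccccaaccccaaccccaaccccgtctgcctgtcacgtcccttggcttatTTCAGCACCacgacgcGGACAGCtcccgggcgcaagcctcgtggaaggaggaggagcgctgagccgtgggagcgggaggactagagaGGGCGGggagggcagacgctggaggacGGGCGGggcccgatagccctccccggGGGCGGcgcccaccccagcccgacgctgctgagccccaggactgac
Scn1a: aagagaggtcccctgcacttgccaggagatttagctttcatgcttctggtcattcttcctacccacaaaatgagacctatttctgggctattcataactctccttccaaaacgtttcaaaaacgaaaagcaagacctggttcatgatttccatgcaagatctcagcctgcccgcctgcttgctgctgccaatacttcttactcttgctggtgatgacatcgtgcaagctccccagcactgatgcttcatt
Kcnn3: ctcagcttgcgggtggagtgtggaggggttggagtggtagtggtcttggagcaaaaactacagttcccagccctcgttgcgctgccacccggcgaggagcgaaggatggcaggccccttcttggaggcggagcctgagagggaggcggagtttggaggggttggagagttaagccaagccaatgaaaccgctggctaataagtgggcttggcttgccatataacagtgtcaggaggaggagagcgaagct

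The Cacna2d1 window, chr5:15934441-15934690 on the plus strand, was 82.4% G and C and held 36 CpG pairs and 6 GC boxes. The Kcnh6 window, chr11:106007898-106008147 on the plus strand, was 70.8% G and C, with 21 CpG pairs and 3 GC boxes. The starts used for both lie inside the genes' annotated spans, after an earlier annotated start. The windows of Scn1a (chr2:66440838-66441087, minus strand) and Kcnn3 (chr3:89519914-89520163, plus strand) held no GC box, and had 46.8% and 58.8% G and C with 4 and 10 CpG pairs. These windows do not stand for their classes of calls. Cacna1b, Kcnc1 and Kcnh2, called with the inhibitor alone, held 3 GC boxes each. Of genes called in the knockouts alone, Kcnh1 held 1, while Cacnb1 and Cacna1d each had a window with 5 and a window with 0. Cacnb3, called in both, had a window with 0 and a window with 3. Over both strands a GC box stood in 32.7% of all 32851 windows, in 42.0% of the 138 windows of members and in 57.1% of the 28 windows of called members, some genes having several windows. The median was 6 CpG pairs over all windows, 8 over members and 9.5 over called members. The full set covered 27025 genes with no filter on their level, while every called member had passed the filter on low counts. The sets are thus unlike in expression, and no test was made between them.

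The left arm searched for the REST element, TTCAGCACC, occurred in 0.301% of all windows and in a single window of a member, that of Kcnh6, 186 bases before the start. The right arm, GGACAGC, which alone stood in 5.28% of all windows, lay 7 bases further on. Both arms, in any order, strand or distance, were held by 5 windows, or 0.0152% of all. Whether REST binds arms at this distance was not tested. A TATA box (TATAAA) was found in 12.4% of all windows and in 3.62% of member windows. These are matches of letters, and no binding or chromatin data were used here. Rest itself was at means of 42.9 CPM in controls, 44.7 in knockouts, 41.5 with DMSO and 46.8 with WM-3835, and was not called in either comparison.

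Scn1a was called in the knockout comparison and not with the inhibitor. The gene (chr2:66270781-66440837) encodes the sodium channel pore of inhibitory interneurons. It was at 4.52, 5.73 and 13.4 CPM in the controls and at 28.0, 28.3 and 29.2 CPM in the knockouts. It was at 7.79, 9.99 and 10.7 CPM with DMSO and at 10.4, 11.9 and 9.23 CPM with WM-3835. The 3 knockout libraries were close together and above all 9 other libraries, and the wildtype groups overlapped. The rise was 3.63-fold in the knockouts (log2 change 1.86, SE 0.29, adjusted p = 3.61e-04), the change with WM-3835 was 0.15 (SE 0.28, adjusted p = 0.806), and the difference between both effects was 1.71 (SE 0.40, adjusted p = 0.0095).

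Scn1a lies in a run of 5 sodium channel genes on chromosome 2, in the order Scn3a, Scn2a, Scn1a, Scn9a and Scn7a. None of its neighbours was called in the knockouts. Scn3a was at 8.96 to 11.2 CPM in controls and 11.1 to 14.4 CPM in knockouts, with a log2 change of 0.33 (SE 0.24, adjusted p = 0.408). The log2 change was 0.09 for Scn2a (SE 0.34, adjusted p = 0.901), -0.08 for Scn9a (SE 0.32, adjusted p = 0.908) and -0.28 for Scn7a (SE 0.42, adjusted p = 0.720).

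Cacng7 (chr7:3332027-3368221), a gamma subunit that regulates AMPA receptors, was nearly missing from the controls, with 2, 0 and 0 counts. The knockouts held 49, 55 and 40 counts, the DMSO cultures 61, 26 and 53, and the WM-3835 cultures 47, 26 and 13. It was thus the control group that stood apart from the other 3 groups. Relative to library size, the 144 knockout counts against 2 control counts gave a ratio of 92.4 (95% counting interval from 25.1 to 770.3), and DMSO against control gave 68.3 (from 18.6 to 569.3). Its neighbour Cacng8, of the same family, had 158 to 286 counts in the controls and 240.0 to 293 in the knockouts. The test gave an adjusted p of 7.94e-04 for the knockouts, and of 0.0888 when each group had its own weight.

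The remaining knockout calls were smaller. Kcnv1, a silent subunit that modifies other potassium channels, was at 2.89, 2.84 and 2.42 CPM in controls and 8.07, 8.21 and 4.62 CPM in knockouts, without overlap (log2 change 1.36, SE 0.39, adjusted p = 0.0250). Its DMSO values of 1.70, 4.45 and 1.59 CPM and its WM-3835 values of 3.04, 3.50 and 2.22 CPM overlapped. The Kcnv1 call ended without knockout replicate 1 (adjusted p = 0.0822), without knockout replicate 2 (0.0872) and with knockout replicate 3 alone (0.485). Kcnk6 rose from 37.9 to 43.6 CPM to 51.3 to 69.3 CPM (log2 change 0.50, SE 0.11, adjusted p = 0.00548), and its wildtype groups, at 65.7 to 84.5 CPM, overlapped. Cacnb1, the beta subunit of the skeletal muscle calcium channel, rose from 14.2 to 16.9 CPM to 19.7 to 25.7 CPM (log2 change 0.48, SE 0.15, adjusted p = 0.0421). This call was held in 8 of 17 other fits, and was lost without control replicate 1 (adjusted p = 0.104), knockout replicate 2 (0.0661) or knockout replicate 3 (0.158).

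Of the members called lower in the knockouts and not with the inhibitor, Kcnh1, an Eag-type potassium channel linked to cell proliferation, went from 10.0 to 18.2 CPM in controls to 5.42 to 8.60 CPM (log2 change -0.92, SE 0.24, adjusted p = 0.0156). Cacna1g, a second T-type pore, went from 26.4 to 34.5 CPM to 19.2 to 23.0 CPM (log2 change -0.55, SE 0.16, adjusted p = 0.0241). Cacna1d, an L-type pore of endocrine cells and hair cells, went from 12.6 to 14.7 CPM to 7.93 to 8.60 CPM (log2 change -0.75, SE 0.24, adjusted p = 0.0410). In each of the 3 genes the control and knockout libraries did not overlap. All 3 calls lay near the threshold. Kcnh1 lost its call without control replicate 3 (log2 change -0.66, adjusted p = 0.0729) or knockout replicate 3 (-0.73, adjusted p = 0.0821). Cacna1g lost it without control replicate 3 (-0.43, adjusted p = 0.0839), knockout replicate 1 (-0.51, adjusted p = 0.0788) or knockout replicate 2 (-0.48, adjusted p = 0.0935). For Cacna1d the call ended whichever of the 6 libraries was left out (adjusted p from 0.0505 to 0.104), while its log2 change stayed between -0.81 and -0.69.

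Some called members share exon bases with a gene on the other strand, and reads of both genes cannot be told apart in unstranded libraries. The share was 12.2% for Kcnk2, 8.01% for Kcnk1, 5.98% for Kcnma1 and 5.27% for Kcnj15, each with a non-coding gene, and 4.67% for Cacna1d, with the coding gene Chdh.

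Several potassium channels fell with WM-3835 and were not called in the knockouts. Kcnn3 was at 113.7 to 123.5 CPM with DMSO and 38.8 to 60.0 CPM with the inhibitor, a fall of 2.43-fold (log2 change -1.28, SE 0.12, adjusted p = 2.79e-07). Kcnk2, a channel opened by stretch and lipids, was at 74.2 to 91.3 CPM and 34.9 to 38.1 CPM (log2 change -1.16, SE 0.11, adjusted p = 2.33e-07). Kcnq3, a subunit of the M current that damps neuronal firing, was at 15.97 to 25.0 CPM and 9.39 to 10.4 CPM (log2 change -1.14, SE 0.18, adjusted p = 9.23e-05). None of these pairs of groups overlapped, and each gene had more than 9 CPM in every library.

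Other potassium channels lower with WM-3835 were Kcnma1, the large-conductance calcium-activated channel (log2 change -0.72, SE 0.13, adjusted p = 5.51e-04), Kcnh2, the Erg channel that repolarises the heart (-0.89, SE 0.21, adjusted p = 0.00487), and Kcnk4, a mechanically opened channel (-0.99, SE 0.27, adjusted p = 0.0136). Kcnc1, a pore of fast-spiking neurons, was at 3.76, 4.23 and 4.54 CPM in DMSO cultures and at 1.25, 0.991 and 1.15 CPM in WM-3835 cultures, without overlap (log2 change -1.88, SE 0.44, adjusted p = 0.00431). In the controls Kcnc1 was at 3.69, 2.27 and 7.12 CPM and in the knockouts at 3.58, 2.54 and 1.46 CPM, which overlapped. Kcnj5, a G protein-gated inward rectifier, had 57 counts in all with DMSO and 8 with WM-3835, a ratio of 6.57 (95% counting interval from 3.12 to 15.9). Kcnj5 stood at 0.597, 0.412 and 0.351 CPM in DMSO cultures, at 0, 0.104 and 0.139 CPM under the inhibitor, and at 3.45, 3.76 and 3.51 CPM in controls and 1.87, 1.95 and 2.19 CPM in knockouts, so that both tamoxifen groups lay above both wildtype groups. The Kcnj5 call (adjusted p = 0.0220) ended with limma-voom (0.105) and without DMSO replicate 1 (0.0824) or WM-3835 replicate 1 (0.0832), and the Kcnk4 call without DMSO replicate 3 (0.0578) or WM-3835 replicate 3 (0.0808). Kcnk4 shares 13.1% of its exon bases with Catsperz on the same strand, so some of its reads may belong to that gene.

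Sodium and calcium channel genes also fell with WM-3835. Scn9a, the sodium channel of pain-sensing neurons, was at 4.97, 5.87 and 5.90 CPM in DMSO cultures and at 1.05, 2.74 and 2.22 CPM under the inhibitor (log2 change -1.48, SE 0.35, adjusted p = 0.00414). Scn7a, a sodium-sensing channel of glia, was at 2.43, 3.48 and 2.36 CPM and at 0.962, 0.861 and 0.625 CPM (log2 change -1.74, SE 0.44, adjusted p = 0.00758). The Scn7a call ended with limma-voom (log2 change -1.63, adjusted p = 0.0674). DMSO and inhibitor libraries were separate for both genes. In the tamoxifen groups they overlapped, with Scn9a at 6.93, 8.99 and 16.1 CPM in controls and 7.66, 10.2 and 12.6 CPM in knockouts, and Scn7a at 4.26, 3.06 and 5.62 CPM and at 2.09, 2.84 and 5.77 CPM. Cacna1b fell from 57.8 to 70.8 CPM to 30.3 to 38.1 CPM (log2 change -0.84, SE 0.15, adjusted p = 5.08e-04), and Cacna2d2, an alpha2delta subunit, from 4.49 to 6.77 CPM to 1.42 to 2.95 CPM (log2 change -1.30, SE 0.28, adjusted p = 0.00210).

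Besides the genes shared with the knockout, 4 members rose with WM-3835. Kcnj15 went from 344 to 425 CPM with DMSO to 535 to 605 CPM (log2 change 0.53, SE 0.08, adjusted p = 4.88e-05). Kcnk1, a weakly conducting 2-pore-domain channel of epithelia, went from 20.6 to 23.0 CPM to 40.0 to 48.1 CPM, a 2.05-fold rise (log2 change 1.03, SE 0.13, adjusted p = 1.35e-05). In both genes the inhibitor libraries overlapped the range of the tamoxifen groups, as Kcnj15 was at 550.3 to 615 CPM and Kcnk1 at 27.7 to 43.4 CPM there. Cacna1e, an R-type calcium pore, went from 2.54 to 3.96 CPM to 5.69 to 8.64 CPM (log2 change 1.17, SE 0.31, adjusted p = 0.0118), and the call ended without DMSO replicate 1 (0.0599), DMSO replicate 2 (0.06) or WM-3835 replicate 1 (0.0806). Cacng4, a gamma subunit that acts on AMPA receptors, went from 3.48 to 3.82 CPM to 6.63 to 7.67 CPM (log2 change 0.98, SE 0.34, adjusted p = 0.0492), a call that ended without any 1 of the 6 libraries (0.0837 to 0.145).

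The effects of knockout and inhibitor were then compared directly, as the difference between both log2 changes in the same fit. It passed the test for 13 of the 118 members, against 10.4% of all genes tested. The knockout effect was the higher for 9 (7.63%, against 4.56% of all genes) and the lower for 4 (3.39%, against 5.80%). Kcnk2 had a log2 change of 0.19 in the knockouts (adjusted p = 0.253) and fell by 1.16 with WM-3835, a difference of 1.35 (SE 0.15, adjusted p = 7.67e-06). Kcnh3 fell in both, and fell more with WM-3835, by a difference of 1.83 (SE 0.24, adjusted p = 3.49e-05). Kcnn3 had a log2 change of -0.24 in the knockouts (adjusted p = 0.176), a difference of 1.04 (SE 0.17, adjusted p = 3.23e-04). Kcnj15 and Kcnk1 rose with the inhibitor and had log2 changes of -0.05 (adjusted p = 0.738) and 0.24 (adjusted p = 0.263) in the knockouts, with differences of -0.58 (SE 0.11, adjusted p = 0.00136) and -0.80 (SE 0.19, adjusted p = 0.00848).

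The 3 calcium channel pores in this set differed in direction. Cacna1b fell with WM-3835 and had a log2 change of 0.19 in the knockouts (adjusted p = 0.461), a difference of 1.03 (SE 0.22, adjusted p = 0.00339). Cacna1e had a log2 change of -0.79 in the knockouts (adjusted p = 0.0940) and rose with WM-3835, a difference of -1.95 (SE 0.44, adjusted p = 0.00572). Cacna1g fell in the knockouts and had a log2 change of 0.40 with WM-3835 (adjusted p = 0.0964), a difference of -0.95 (SE 0.23, adjusted p = 0.00897). In each of these genes the libraries of DMSO and control also lay apart, with Cacna1g at 7.18 to 7.59 CPM with DMSO and at 26.4 to 34.5 CPM in controls. Of the remaining members of the set, the difference was 0.91 for Kcnq3 (adjusted p = 0.0192), 0.58 for Kcnk6 (0.0233) and 1.30 for Cacng8 (0.0401). For Kcnma1, Cacna2d2, Scn9a, Kcnc1, Kcnh2, Scn7a, Kcnk4, Kcnj5 and Cacng4, called with the inhibitor and not in the knockouts, the difference did not pass the test, and for Scn7a it was 1.46 with a 95% interval from 0.29 to 2.64 (adjusted p = 0.136).

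**Figure D3:**
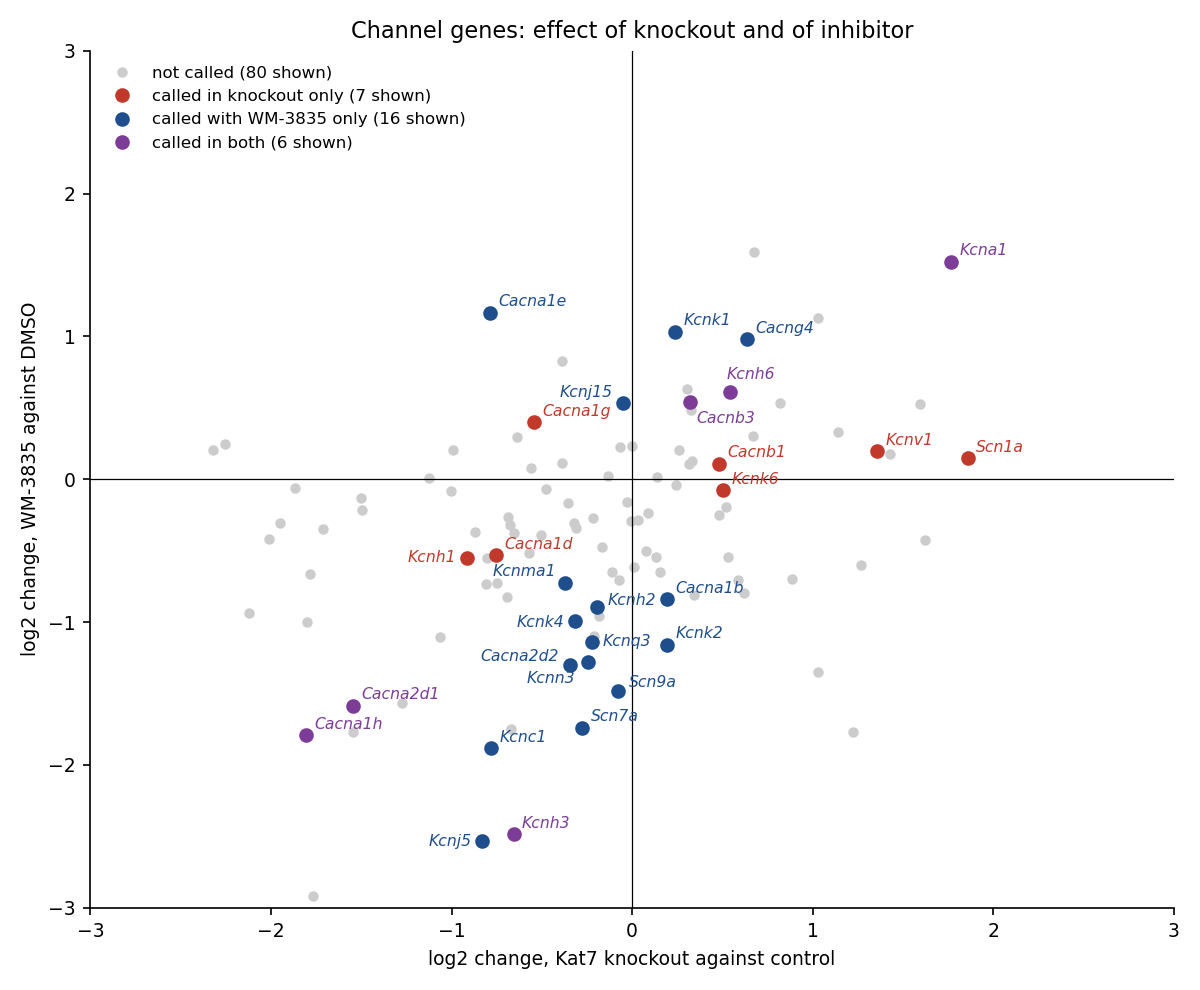
Log2 change in the knockouts (horizontal) against log2 change with WM-3835 (vertical), for 109 channel genes tested, coloured by the comparison that called them. Genes called in both lie in the upper right and lower left, while Kcnk2, Kcnn3 and Cacna1b lie near 0 for the knockout and below -0.8 for the inhibitor, and 7 genes, among them Cacng7, lie outside the axes.

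**Figure D4:**
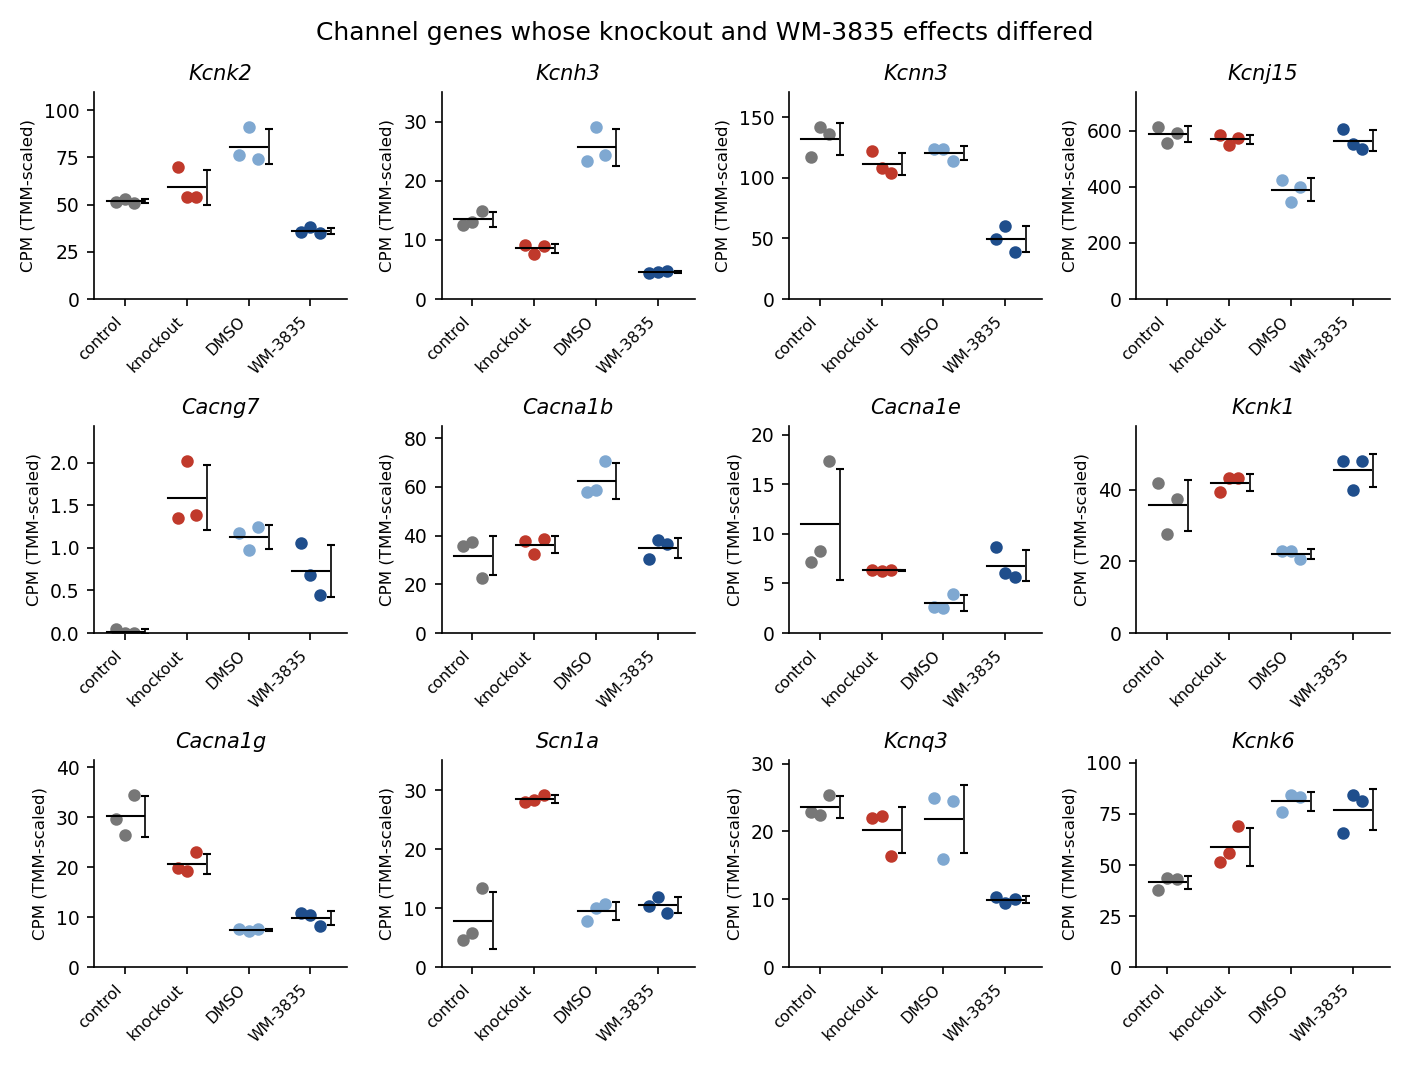
CPM of the 12 channel genes with the smallest adjusted p for the difference between both effects, with 1 point per library, the group mean as a line and 1 SD as the bar beside it. In Kcnn3 the WM-3835 libraries (38.8 to 60.0 CPM) lie below all others, and in Scn1a the knockouts (28.0 to 29.2 CPM) lie above all others.

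The starting level differed between both control groups for many members. Scn3a was at 8.96 to 11.2 CPM in the tamoxifen controls and 1.50 to 1.80 CPM with DMSO, Kcnh2 at 19.5 to 23.5 CPM and 6.73 to 7.42 CPM, and Cacna1d at 12.6 to 14.7 CPM and 2.21 to 4.03 CPM. In the other direction Kcnk6 was at 37.9 to 43.6 CPM in controls and 75.9 to 84.5 CPM with DMSO. Tamoxifen, solvent, the genotype label (control or wildtype) and the level of Xist differ together between these groups, and their parts cannot be told apart. No test was made between them.

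Summed over all 138 members, channel transcripts came to 1640 to 1709 CPM in the tamoxifen groups. They came to 1350 to 1425 CPM with DMSO and 1342 to 1415 CPM with WM-3835, which overlapped. Kcnj15, which rose with the inhibitor, made up a large part of these sums. Without Kcnj15 the sums were 1088 to 1132 CPM in controls, 1090 to 1123 in knockouts, 968 to 1027 with DMSO and 800.1 to 864 with WM-3835, so that the inhibitor libraries lay below all others. Such a sum is set mostly by abundant genes and does not stand for the members as a whole. Kcnn3 alone went from a mean of 120.2 CPM with DMSO to 49.4 CPM with WM-3835.

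How often members were called followed how strongly they were expressed, as for all genes. Among the 26 members with a mean log2 CPM over 3, 26.9% were higher and 15.4% lower in the knockouts, against 9.77% and 8.84% of all genes at that level. With WM-3835 the shares were 23.1% higher and 30.8% lower, against 14.5% and 10.9%. Among the 46 members with a mean log2 CPM under 0, 1 gene, Cacng7, was called in the knockouts and 1 gene, Kcnj5, with the inhibitor, and the median log2 change of these members, -0.51 and -0.38, stood beside -0.54 and -0.50 for all genes at that level. Between 0 and 3 the medians of the members were -0.31 in the knockouts and -0.45 with WM-3835, beside -0.24 and -0.12 for all genes. Over 3 they were 0.00 and -0.12, beside 0.04 and 0.04. Members also spanned more of the genome than other genes, with a median of 51.0 kb for those tested against 20.0 kb for all genes tested.

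Of 22 tested genes for proteins that bind these channels, 0 were higher and 4 lower in the knockouts, and 1 was higher and 6 lower with WM-3835. That is 18.2% lower in the knockouts, against 8.04% of all genes tested, and 27.3% lower with WM-3835, against 9.36%. Rrad, a small GTPase that restrains calcium channels, fell in both (log2 change -1.41, SE 0.13, adjusted p = 9.67e-07, and -0.66, SE 0.13, adjusted p = 0.00105), and so did Dpp10, an auxiliary subunit of A-type potassium channels (-0.64 in the knockouts, adjusted p = 0.00855). Gem, a relative of Rrad, fell in the knockouts (-0.79, adjusted p = 9.37e-06). Fgf14, which binds sodium channels at the axon initial segment, fell with WM-3835 from a mean of 153 to 52.8 CPM (log2 change -1.54, SE 0.23, adjusted p = 8.26e-04).

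Of 21 tested cation channels outside the name rule, 1 was higher and 1 lower in the knockouts (Hcn2, a pacemaker channel, by 1.37, and Scnn1b, an epithelial sodium channel subunit, by -2.10), and 1 was higher and 4 lower with WM-3835. The lower calls were 4.76% of the list in the knockouts (8.04% of all genes tested) and 19.0% with WM-3835 (9.36%). Hcn4, the pacemaker channel of the heart, fell with WM-3835 from a mean of 10.3 to 2.82 CPM (log2 change -1.87, SE 0.25, adjusted p = 1.99e-05). Of 27 genes of the synapse and of vesicle release, 1 was higher and 3 lower in the knockouts, and 1 was higher and 9 lower with WM-3835. The lower calls were 11.1% of the list in the knockouts, against 8.04% of all genes tested, and 33.3% with WM-3835, against 9.36%. Dlg4, a scaffold of excitatory synapses, fell in both (-1.86, adjusted p = 6.52e-06, and -1.15, adjusted p = 4.69e-04), as did Sv2b, a synaptic vesicle protein (-1.05, adjusted p = 8.70e-04, and -1.16, adjusted p = 1.31e-04). Of 13 genes of the REST repressor complex, Rcor2 fell (-1.81, adjusted p = 1.87e-04) and Ehmt1 rose (0.23, adjusted p = 0.0426) in the knockouts. That is 7.69% lower, against 8.04% of all genes tested, and 7.69% higher, against 6.34%. With WM-3835 edgeR called 0 of the 13, and 2 had an unadjusted p under 0.05, as had 5572 of all 18670 genes tested.

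Markers of other cells were present at low sums. The 16 neuronal markers summed to 249 to 292 CPM in controls, 292 to 309 in knockouts, 199 to 227 with DMSO and 209 to 246 with WM-3835, and Gap43 was among those under 1 CPM in every library. The 12 neuroendocrine markers summed to 329 to 389 CPM, 289 to 369, 305 to 342 and 166 to 315 CPM in the same order, with Scg3 under 1 CPM throughout. The 10 skeletal muscle markers summed to 28.9 to 38.4 CPM in controls and 13.3 to 18.2 in knockouts, and to 18.1 to 23.0 with DMSO and 8.37 to 9.70 with WM-3835, with Myod1, Myf5 and Actn2 under 1 CPM. The 8 fibroblast markers went from 127 to 197 CPM in controls to 62.5 to 85.4 in knockouts, and from 58.0 to 75.6 to 51.9 to 65.6 CPM with the inhibitor. The 9 glial markers summed to 116 to 172 CPM over all libraries, with Cdh19 under 1 CPM, the 6 endothelial markers to 1.61 to 20.9 CPM with Cdh5, Kdr, Tie1 and Emcn under 1 CPM, and the 8 blood markers to 4.80 to 19.6 CPM with Cd3e, Cd8a and Hbb-bs under 1 CPM. Muscle and fibroblast sums were thus lower in knockouts than in controls without overlap, and muscle sums were lower with WM-3835 than with DMSO. Their part in the results, like that of Aire, was not tested.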

How the data were processed

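The authors' deposited files hold raw counts per gene and library. They were made with featureCounts on build mm10, per the submitters' processing notes. Libraries came from an unstranded kit and 75-base paired-end reads, per the labels' protocols. Which aligner, gene annotation and strand option were used is not given in the sources used here. Rows without a symbol held 0.657% to 0.743% of the counts of a library and were left out.

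Gene-wise tests used edgeR 4.0.16 in R 4.3.3: TMM scaling, filterByExpr on the 4 groups, a quasi-likelihood fit (robust) of 4 group means over 12 libraries, two-sided tests and Benjamini-Hochberg adjustment over 18670 genes, with calls at an adjusted p under 0.05. Where an adjusted p is given, it comes from this test. SE is the log2 change divided by the square root of F. RPKM is TMM-scaled CPM per kilobase of the deposited gene length. The fit was checked on simulated data with the same spread in every group, so that this check does not cover the unequal spread of the real groups. Other fits tried were DESeq2 1.42.0, limma 3.58.1 (voom), upper-quartile or RLE scaling, other filters, group weights, the replicate block, Xist as a covariate and leaving out libraries.

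The members and lists were chosen with earlier results of these data known. Called members were named, except for some items that are not reported here, with values per library for the 12 with the largest changes without overlap. Gene positions, promoter windows and exon overlaps came from RefSeq GRCm38.p6, which matched all 138 members, and GENCODE. Counting intervals cover counting error only.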

Additional observations from a re-analysis of the deposited data

Results flagged for a closer look

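The knockout effect minus the WM-3835 effect, on the log2 scale, passed edgeR's quasi-likelihood test of the difference itself for 13 of the 118 channel genes tested. Of all genes tested 10.4% passed, a share near that of the members. The genes are listed because loss and inhibition of KAT7 gave unlike results for them. Both effects rest on different control groups. DMSO and control libraries did not overlap in some of these genes, such as Kcnk2, Kcnj15 and Kcnk1, and overlapped in others, such as Scn1a and Kcnn3. The knockout effect was the higher for Kcnh3 (1.829), Scn1a (1.71), Kcnk2 (1.352), Cacng8 (1.296), Kcnn3 (1.035), Cacna1b (1.029), Kcnq3 (0.9148) and Kcnk6 (0.5778). Cacng7 had the largest value (6.946), which rests on 2 counts in the controls and depends on the prior count used for so rare a gene. The inhibitor effect was the higher for Cacna1e (-1.953), Cacna1g (-0.9453), Kcnk1 (-0.7968) and Kcnj15 (-0.5835). Cacng8, which was called in neither comparison (knockout 0.59, WM-3835 -0.71), had an adjusted p of 0.0401, and this call ended in 12 of 20 other fits, with adjusted p from 0.0503 to 0.147 without control replicate 3, knockout replicate 2 or 3, or any of the 6 wildtype libraries. The Kcnq3 call (adjusted p = 0.0192) ended without DMSO replicate 1 (0.0652) or DMSO replicate 3 (0.0628). The Kcnk6 call (adjusted p = 0.0233) ended without knockout replicate 3 (0.0706), DMSO replicate 2 (0.0564), DMSO replicate 3 (0.0513) or WM-3835 replicate 1 (0.0751).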

How the results depend on the processing

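No called channel gene changed direction under any setting run. In the knockouts, 9 members were called higher and 7 lower. These counts became 3 and 4 with group weights, 5 and 3 with the 6 libraries of the comparison alone, 5 and 3 with Xist as a covariate, and 5 and 2 with knockout replicate 3 as the only knockout library. Leaving out 1 library gave 6 to 11 higher and 4 to 8 lower. With WM-3835, leaving out 1 library gave 5 to 7 higher and 15 to 16 lower, and the lower calls rose from 16 to 24 with group weights and to 23 with the 6 libraries alone. For the difference between both effects, leaving out 1 library gave 10 to 15 calls against 13. Over all genes, in either direction, knockout calls ran from 550 with Xist as a covariate to 3399 with DESeq2, against 2684 in the main fit. They were 1192 with group weights and 1243 with the 6 libraries alone. Inhibitor calls ran from 2458 without WM-3835 replicate 1 to 6603 with group weights, against 3530 in the main fit. With the 6 libraries alone there were 6090. The member counts thus moved in the same direction as the counts over all genes in these 2 fits.

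Replicate numbers gave no sign of pairing between controls and knockouts, as same-numbered libraries correlated at 0.01, -0.03 and 0.01 and unlike-numbered ones at -0.05 to 0.05. With so few libraries per group these correlations cannot decide whether they were paired. Between DMSO and WM-3835, same-numbered libraries correlated at 0.13, 0.17 and 0.02 and unlike-numbered ones at -0.16 to 0.05. Replicates 1 and 2 thus lay above every unlike-numbered pair there, and whether these cultures were paired is not given. With the replicate block, 8 members were higher and 7 lower in the knockouts, 8 and 16 with WM-3835, and 13 in the difference. Scaling moved the median of all genes by at most 0.05 on the log2 scale. For members under 1 CPM, such as Kcnj5 with DMSO, the depth allows no finer statement than the counting intervals given.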
